A study of Mus musculus with 10 samples.

Results

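GABA-A receptor subunits were compared between medulloblastomas and the cerebellum beside them, on Affymetrix 430A and 430B arrays of 3 tumours and 2 cerebellum samples per chip. The genes were Gabra2, Gabra3, Gabra6, Gabrb1, Gabrb2, Gabrg1 and Gabrd, and every probe set that names 1 of them and no other gene was taken. These genes were chosen with earlier results of these data known, and other measured subunits are given further below. This gave 22 probe sets for 7 genes, 9 of 22626 on 430A and 13 of 22511 on 430B, out of 18193 genes with a probe set of their own. Gabra6 and Gabrg1 had probe sets on 430A alone, and the other 5 genes had probe sets on both chips. The tumours, malignant growths of the cerebellum, were from mice with the alleles CAGGS-CreER and R26-SmoM2 that had received 1 mg of tamoxifen per 40 g of weight on postnatal day 10. The cerebellum samples, which the titles call wild type, were tissue next to the tumours in mice with the same alleles and the same injection. CAGGS is a promoter active in most cell types, CreER a recombinase that works once tamoxifen is bound, and SmoM2 an activated form of the Hedgehog pathway protein Smoothened. The sources used here give neither the age at collection nor the sex, nor how many mice were used.

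GABA-A receptors are chloride channels, opened by the transmitter GABA, that are built as rings of subunits. Alpha and beta subunits together bind GABA, and a gamma subunit next to an alpha subunit forms the binding site of benzodiazepines. The delta subunit takes the place of gamma in receptors outside the synapse, which carry tonic inhibition. In the cerebellum alpha-6 and delta belong to mature granule neurons, beta-2 is the prevailing beta subunit of cerebellar neurons, and alpha-2 and gamma-1 are known from Bergmann glia.

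The deposited value of a probe set is an intensity on a linear scale. Array medians were 33.3 to 35.9 on 430A and 22.5 to 24.0 on 430B, and 298 to 477 values per array were exactly 1, with at most 3 below it. A value of 1 is called the floor here, although it is not a strict one. Replicate arrays of a tissue had correlations over probe sets of at least 0.960 (430A) and 0.929 (430B) on the log2 scale. Over the 100 probe sets that both chips hold, the centred profile of tumour 2 on 430A was most like that of tumour 3 on 430B (r = 0.86), and tumour 1 on 430A most like tumour 2 on 430B (r = 0.83). The tumour numbers therefore do not identify the same tumour on both chips by these data, and the chips are kept apart. The labelled tissues were set against marker genes. All 9 measured markers of granule precursors and cycling cells were higher in the tumours, with a summed intensity of 3969 to 4329 in tumours and 421 and 224 in cerebellum 1 and 2. All 7 measured markers of mature granule neurons and all 7 of Purkinje cells were lower, with sums of 441 to 489 and 242 to 493 in tumours and of 6354 to 7338 and 14054 to 17715 in cerebellum. Snap25 read 2972 and 3408 in cerebellum 1 and 2, a large part of the granule neuron sum.

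For 6 of the 7 subunit genes at least 1 probe set was lower in the tumours by the test described next. Gabrd is among them with 1 of its 2 tested probe sets. The share of all genes with such a probe set was not counted, and the shares below are of probe sets. By limma on log2(intensity + 16), with Benjamini-Hochberg adjustment over all tested probe sets of a chip, 6 of the 9 probe sets on 430A and 8 of the 13 on 430B passed an adjusted p of 0.05 as lower in medulloblastoma, and none was higher. Over all tested probe sets, 19.0% on 430A and 9.77% on 430B were lower, and 13.1% and 7.85% were higher. The 7 genes were chosen with earlier results of these data known, so an excess over these shares is no independent support. Of 8 other measured subunit genes, 4 were tested, 1 was lower and none was higher. Of the 22 probe sets, 3 were tested and not called, 2 of Gabra3 and 1 of Gabrd, and 5 lay among the 25% with the lowest mean, which were left out of the test. The test favours probe sets that are bright in at least 1 tissue, so the same count was taken with no filter, where 7 of 9 and 8 of 13 were lower against 14.0% and 6.58% of all probe sets. With no filter the median log2 fold change of tumour over cerebellum was -1.13 over the 9 and -1.41 over the 13, and -0.03 and -0.02 over all probe sets of the chips. Every tumour array lay below both cerebellum arrays in 7 of 9 and 10 of 13 probe sets, as in 27.6% and 21.9% of all probe sets. Samples are titled biological replicates, without a word on whether each is another mouse. The p-values set a difference against the spread between these samples, which limma moderates with that of the other probe sets of the chip. RNA came from pieces of tissue, so fewer cells of a type and less RNA per cell cannot be told apart. Without cerebellum 2 the test called 2057 probe sets of 430A lower in place of 3229, and on 430B it called 954 in place of 1649, or 1020 without cerebellum 1.

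**Figure D1:**
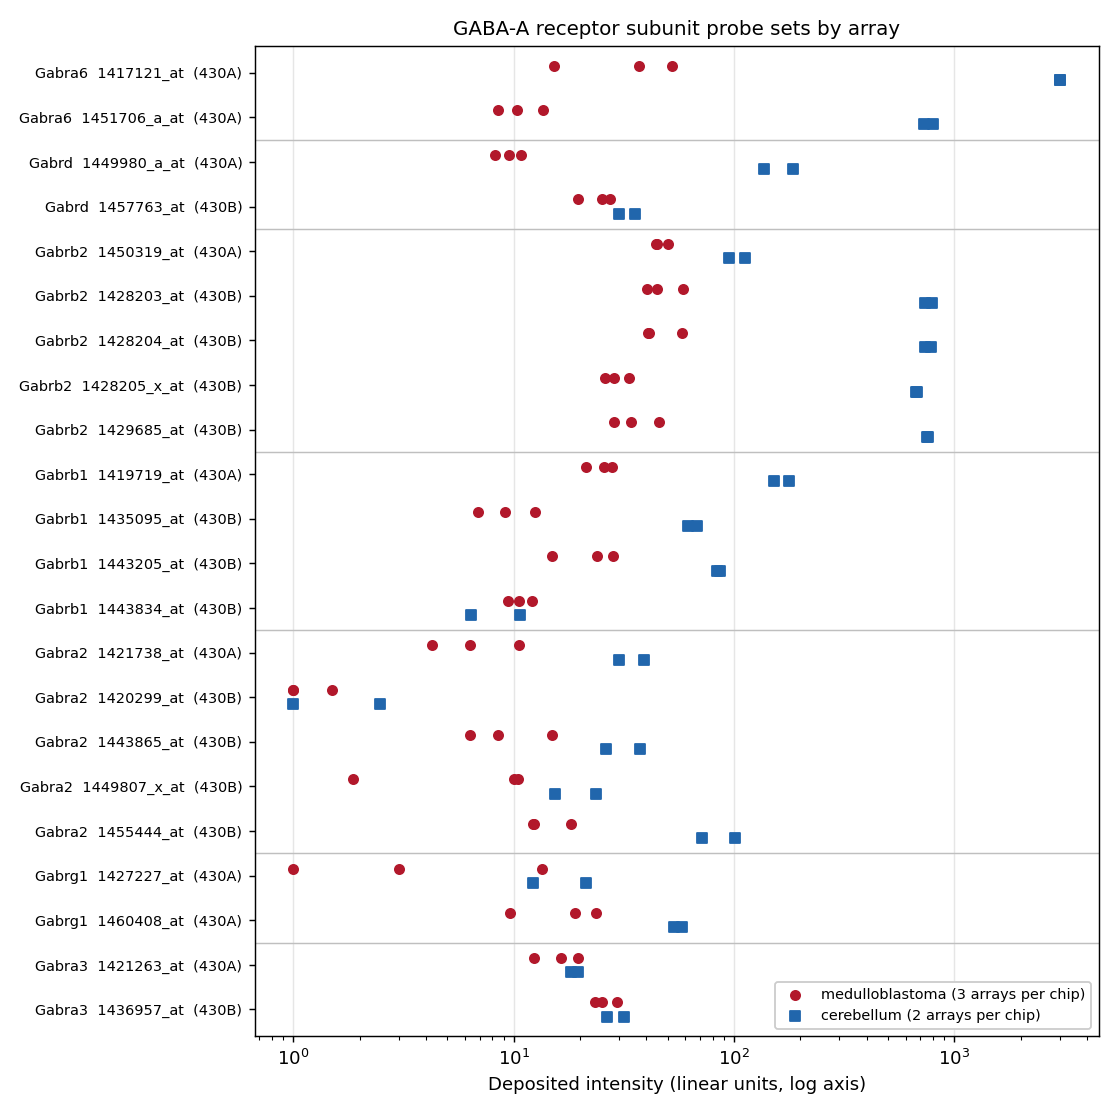
Deposited intensity of the 22 GABA-A subunit probe sets on a log axis, with the 3 medulloblastoma arrays of a chip as circles above the 2 cerebellum arrays as squares. The Gabra6 tumour values lie between 8.52 and 52.2 and the cerebellum values at 731 and above, while the tissues overlap in Gabra3.

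Gabra6 and Gabrb2 lie next to each other on chromosome 11 with no protein-coding gene between them in the RefSeq gene table of GRCm38.p6. The RefSeq promoter windows of these 2 genes are shown because their probe sets had the largest falls of the 22, and that of Gabra3 because none of its probe sets was called. Each window runs from 250 bases before to 50 bases after a gene start, printed 5′ to 3′ on the strand of the gene. Capitals mark the half-site TTGGC of nuclear factor I on either strand, a family of transcription factors known to bind the proximal Gabra6 promoter in granule neurons.
Gabra6, minus strand, chr11:42321023-42321322: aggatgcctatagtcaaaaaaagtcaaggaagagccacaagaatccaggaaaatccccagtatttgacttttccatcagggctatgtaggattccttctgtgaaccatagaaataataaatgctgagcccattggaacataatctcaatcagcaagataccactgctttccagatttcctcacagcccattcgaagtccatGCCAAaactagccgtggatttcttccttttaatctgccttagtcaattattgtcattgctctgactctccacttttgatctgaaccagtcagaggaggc
Gabrb2, plus strand, the first of 3 starts, chr11:42420190-42420489: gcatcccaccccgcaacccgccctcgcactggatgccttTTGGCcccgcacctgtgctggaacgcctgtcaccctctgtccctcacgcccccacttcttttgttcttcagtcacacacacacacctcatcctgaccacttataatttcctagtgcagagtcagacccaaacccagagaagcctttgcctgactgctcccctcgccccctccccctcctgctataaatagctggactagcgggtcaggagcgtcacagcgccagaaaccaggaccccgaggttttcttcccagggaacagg
Gabra3, minus strand, 1 of 2 starts, chrX:72656870-72657169: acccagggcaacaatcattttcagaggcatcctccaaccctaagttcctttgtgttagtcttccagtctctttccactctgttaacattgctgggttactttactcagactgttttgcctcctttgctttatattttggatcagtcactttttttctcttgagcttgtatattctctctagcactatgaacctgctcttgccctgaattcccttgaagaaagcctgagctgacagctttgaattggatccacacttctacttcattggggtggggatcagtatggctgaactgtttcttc

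The Gabra6 window held the half-site once, on the other strand (GCCAA), starting 49 bases before the gene start, and the Gabrb2 window shown held it once, 211 bases before. The windows of the other 2 Gabrb2 starts held none, nor did either Gabra3 window. Of the 10 windows of 6 subunit genes in the table, 5 held the half-site, against 46.7% of all 32851 windows, a share near that background. The full palindrome, TTGGC and GCCAA with 5 bases between them, was in 0 of the 10 windows and in 0.0365% of all windows. The GLI core TGGGTGGTC was in 0 of the 10 on either strand and in 0.253% of all, and the E-box CAGCTG in 0 of the 10 and in 16.3% of all. These are matches of letters in short windows, and nothing follows from them about binding. The windows differed in CG dinucleotides, with 2 in Gabra6, 11 in this Gabrb2 window and 0 in Gabra3, and a median of 7 over all windows. Gabrd is not in the promoter table.

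Gabra6, which encodes the alpha-6 subunit, had the largest fall of the set. Its probe set 1417121_at read 52.2, 37.0 and 15.2 in tumours 1, 2 and 3 and 3020 and 3004 in cerebellum 1 and 2. The cerebellum samples were nearly equal, while tumour 1 read more than 3 times the value of tumour 3. The mean was 34.8 ± 18.6 (SD) over the 3 tumours and 3012 ± 11.2 (SD) over the 2 cerebellum samples, and the log2 fold change was -5.97 ± 0.29 (SE, adjusted p = 3.82e-07 in limma). A second probe set, 1451706_a_at, read 10.4, 8.52 and 13.6 in tumours 1, 2 and 3 and 802 and 731 in cerebellum 1 and 2. Here tumour 3 was the highest tumour and in the first probe set it was the lowest, so the order of the tumours is not shared between the probe sets. The log2 fold change was -4.87 ± 0.18 (SE, adjusted p = 3.02e-07). Tumour values of both probe sets are of the size of the pseudocount of 16, so the fold change depends on it. With a pseudocount of 64 the log2 values were -4.98 and -3.47, and with a pseudocount of 1 the second probe set had -6.04.

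Gabrd encodes the delta subunit, the partner of alpha-6 in extrasynaptic receptors of granule neurons. Probe set 1449980_a_at read 10.8, 9.48 and 8.26 in tumours 1, 2 and 3 and 136 and 186 in cerebellum 1 and 2. All tumours lay near each other and far below the cerebellum. The log2 fold change was -2.78 ± 0.17 (SE, adjusted p = 9.48e-07), -3.93 with a pseudocount of 1 and -1.60 with 64. The 430B probe set 1457763_at read 25.2, 19.6 and 27.3 in tumours and 35.6 and 30.2 in cerebellum. The tissues did not overlap here either, but the log2 fold change was -0.29 ± 0.15 (SE, adjusted p = 0.220), with a 95% interval from -0.62 to 0.03. The interval of the first probe set ran from -3.15 to -2.41, so the 2 probe sets of Gabrd gave different sizes, a difference between chips that was not tested.

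Gabrb2 encodes the beta-2 subunit, and all 5 of its probe sets were lower in the tumours. On 430B there are 4, and 3 of these, 1428203_at, 1428204_at and 1428205_x_at, were designed from the same sequence entry, so they are not separate evidence. Probe set 1428203_at read 40.3, 58.9 and 44.8 in tumours 1, 2 and 3 and 793 and 738 in cerebellum 1 and 2. Probe set 1429685_at, from another entry, read 34.2, 45.7 and 28.6 in tumours and 755 and 757 in cerebellum. In all 4 of these probe sets tumour 2 of 430B was the highest tumour, and the tumours lay far below the cerebellum samples. The log2 fold changes were -3.62 ± 0.22 for 1428203_at, -3.64 ± 0.22 for 1428204_at, -3.93 ± 0.19 for 1428205_x_at and -3.90 ± 0.21 for 1429685_at (SE), each with an adjusted p of 5.59e-06 in limma. With a pseudocount of 64 they lay between -3.04 and -2.89.

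The 430A probe set of Gabrb2, 1450319_at, gave a smaller fall. It read 49.9, 44.1 and 44.8 in tumours and 112 and 95.1 in cerebellum, without overlap. The log2 fold change was -0.94 ± 0.17 (SE, adjusted p = 0.00122), with a 95% interval from -1.31 to -0.57. The intervals of the 430B probe sets reached from -4.38 for 1429685_at to -3.14 for 1428203_at. The direction is shared by all 5 probe sets, and the size depends on the probe set. The files do not say which transcripts each probe set detects.

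Gabrb1 encodes the beta-1 subunit and lies on chromosome 5, where it is the neighbour of Gabra4. Probe set 1419719_at on 430A read 25.8, 21.3 and 27.9 in tumours and 177 and 152 in cerebellum, a log2 fold change of -2.14 ± 0.17 (SE, adjusted p = 4.03e-06). On 430B, 1435095_at read 12.5, 9.08 and 6.88 in tumours and 68.1 and 62.1 in cerebellum, with a log2 fold change of -1.68 ± 0.14 (SE, adjusted p = 3.41e-05). Probe set 1443205_at read 28.1, 23.8 and 15.0 in tumours and 86.1 and 83.3 in cerebellum, with -1.41 ± 0.17 (SE, adjusted p = 3.22e-04). All 3 were separated by tissue, and tumour 1 was the highest tumour in both 430B probe sets. With a pseudocount of 64 the 3 log2 values were -1.36, -0.81 and -0.79, and 1435095_at had -2.69 with a pseudocount of 1. The probe set 1443834_at lay below the filter in both tissues, with 12.2, 10.6 and 9.46 in tumours and 6.37 and 10.6 in cerebellum, and is no measure of a difference.

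Gabra2 encodes the alpha-2 subunit and was lower by 2 tested probe sets of 430B. Probe set 1455444_at read 12.4, 18.1 and 12.3 in tumours and 71.6 and 101 in cerebellum, a log2 fold change of -1.75 ± 0.17 (SE, adjusted p = 6.68e-05). It was -2.52 with a pseudocount of 1 and -0.93 with 64. Probe set 1443865_at read 14.9, 8.44 and 6.35 in tumours and 26.3 and 37.3 in cerebellum, with -0.89 ± 0.18 (SE, adjusted p = 0.00666). This call ended without cerebellum 2, where the log2 fold change was -0.72 with an adjusted p of 0.113, and the value was -1.65 with a pseudocount of 1. The 3 other probe sets lay below the filter. On 430A, 1421738_at read 4.26, 6.30 and 10.6 in tumours and 29.9 and 38.9 in cerebellum, and with no filter its log2 fold change was -1.13 (adjusted p = 6.66e-04). Probe set 1449807_x_at read 1.86, 9.98 and 10.4 in tumours and 15.3 and 23.6 in cerebellum, with -0.61 and an adjusted p of 0.0971 when no filter was used. Probe set 1420299_at, from the same sequence entry, read 1, 1 and 1.5 in tumours and 2.46 and 1 in cerebellum, at or near the floor in both tissues.

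Gabrg1 encodes the gamma-1 subunit and is the neighbour of Gabra2 on chromosome 5. Probe set 1460408_at read 23.6, 9.62 and 19.1 in tumours and 53.2 and 57.7 in cerebellum. Tumour 2 was the lowest, and no tumour reached a cerebellum value. The log2 fold change was -1.12 ± 0.19 (SE, adjusted p = 8.26e-04). The other probe set, 1427227_at, lay below the filter and overlapped between tissues, with 13.4, 1 and 3.03 in tumours and 21.3 and 12.2 in cerebellum. Tumour 2 was at the floor there, and with no filter the log2 fold change was -0.61 (adjusted p = 0.0825).

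Gabra3 encodes the alpha-3 subunit, on the X chromosome, and was the 1 gene of the 7 with no called probe set. Probe set 1421263_at on 430A read 16.5, 12.4 and 19.6 in tumours and 19.6 and 18.2 in cerebellum, and 1436957_at on 430B read 29.5, 23.3 and 25.1 in tumours and 31.5 and 26.5 in cerebellum. The tissues overlapped in both. The log2 fold changes were -0.12 ± 0.15 (SE, adjusted p = 0.586) and -0.10 ± 0.14 (SE, adjusted p = 0.696). Their 95% intervals, -0.45 to 0.20 and -0.41 to 0.21, leave room for a change of that size in either direction. No measure of detection was used, so what part of such low intensities is background was not tested.

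**Figure D2:**
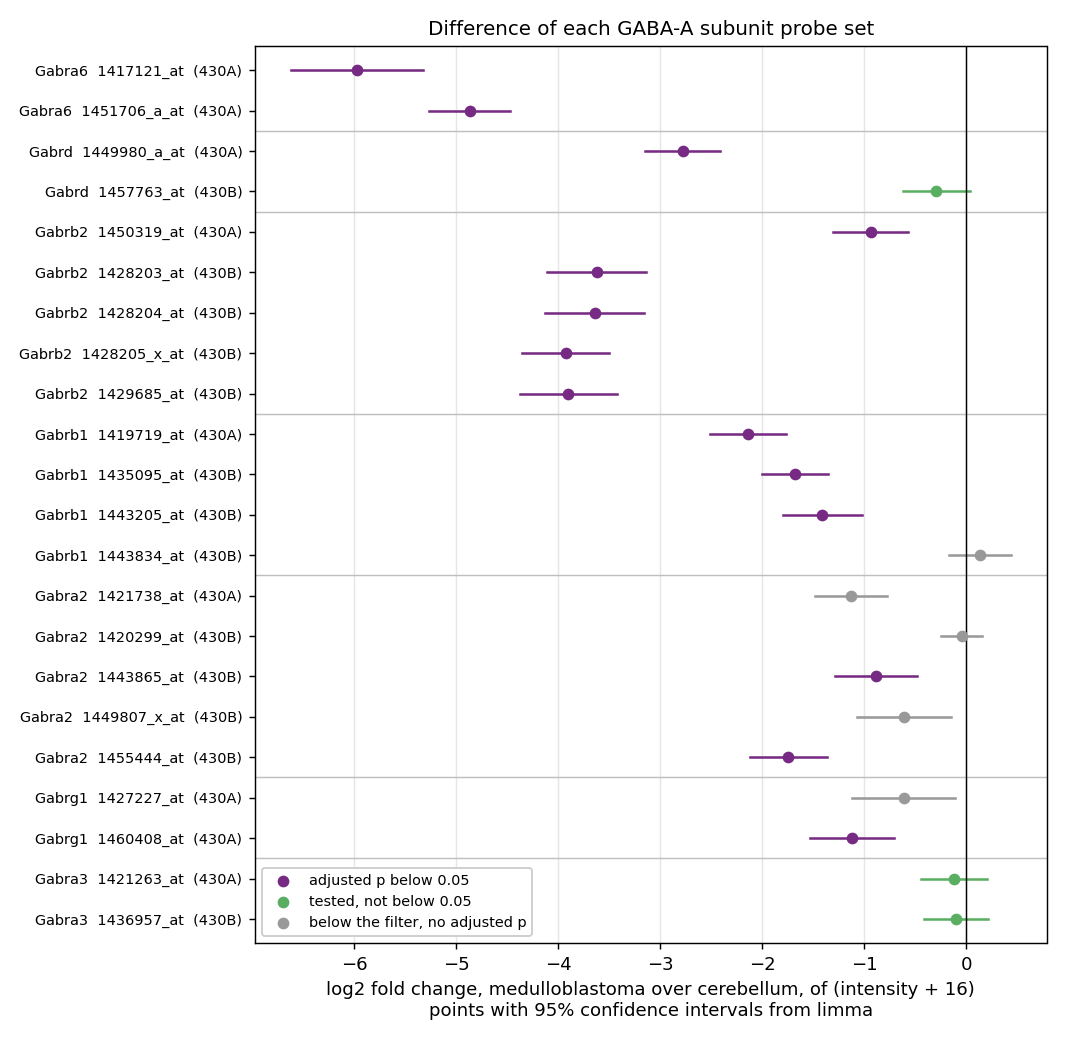
Log2 fold change of medulloblastoma over cerebellum for each probe set, on the log2(intensity + 16) scale, with 95% confidence intervals from limma. Gabra6 has the largest falls at -5.97 and -4.87, Gabrb2 splits between -0.94 on 430A and -3.93 to -3.62 on 430B, and both Gabra3 intervals include 0.

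By its brighter probe set, Gabra6 was lower relative to the other 5 subunits with a tested probe set on the same arrays. That probe set had a cerebellum mean of 3012, against 18.9 (Gabra3) to 165 (Gabrb1) for the others. With a pseudocount of 16 the fall of a dim probe set is understated, so the differences below depend partly on brightness. As plain ratios of means, cerebellum was 86.6 times the tumours for Gabra6 and 16.9 times for Gabrd. The second Gabra6 probe set, with a smaller fall of -4.87, was not used. The log2 ratio of Gabra6 (1417121_at) to Gabrd (1449980_a_at) was 1.35, 1.06 and 0.36 in tumours 1, 2 and 3 and 4.32 and 3.91 in cerebellum 1 and 2 of 430A. Probe sets differ in brightness, so a single ratio has no meaning and only its difference between tissues is read. That difference was -3.19 for Gabrd, -3.83 for Gabrb1, -4.85 for Gabrg1, -5.03 for Gabrb2 and -5.85 for Gabra3. The 430A probe set of Gabra2, 1421738_at, lay below the filter on low values, so its difference of -4.84 is given as a value only, and the tested Gabra2 probe sets are on 430B. In all 6 ratios the tumours lay below both cerebellum samples. The exact two-sided permutation test gave p = 0.1 each time, the smallest that 3 against 2 arrays allow. Each difference is the gap between 2 log2 fold changes given above, and Gabra6 had the largest fall. The shared direction therefore follows from the choice of Gabra6 and is no separate result. The 6 ratios share the Gabra6 value, and tumour 3, where it was lowest, had the lowest ratio in all 6. The Gabrb2 ratio rests on its 430A probe set and would be smaller with a fall of the size seen on 430B.

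**Figure D3:**
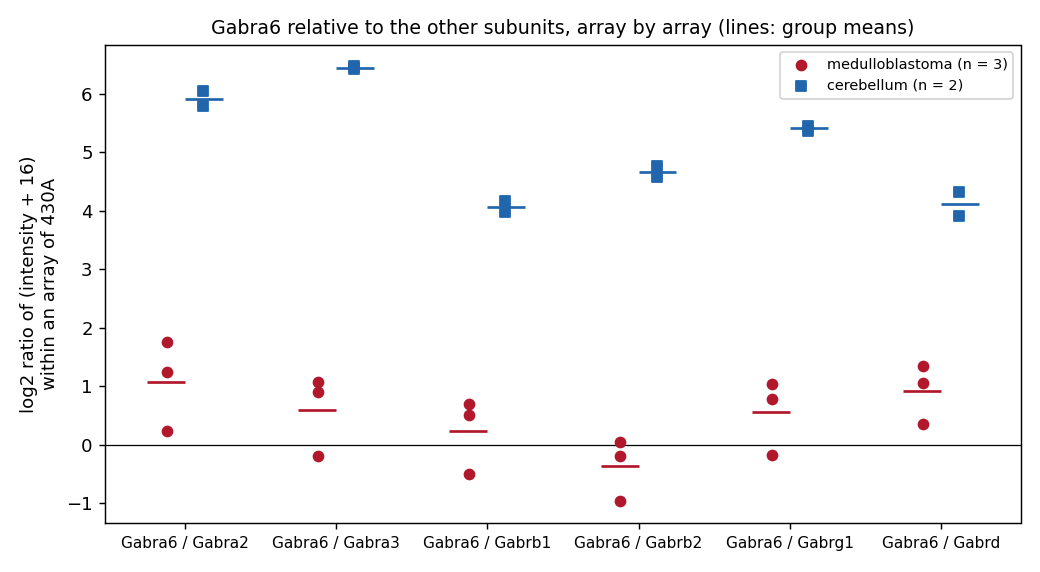
Log2 ratio of Gabra6 to each other subunit within each 430A array, with lines at the group means. The Gabra2 probe set lay below the filter on low values. All tumour ratios lie between -0.96 and 1.75 and all cerebellum ratios between 3.91 and 6.47.

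The probe sets of other genes with the profile most like that of each subunit were found by the root mean square difference of centred log2 values over the 5 arrays of a chip. For Gabra6 they were those of Calb1 (0.200) and Pvalb (0.412), 2 calcium-binding proteins of Purkinje cells. For Gabrd they were Clu (0.0521) and Cystm1 (0.0715), for the 430A probe set of Gabrb2 Lpp (0.0383) and Ero1a (0.0412), and for Gabrb1 Cdc42 (0.0303) and Arhgap5 (0.0591). Gabrg1 was nearest to Isca1 (0.0563) and Rab2a (0.0584), Gabra2 on 430B to Adcy1 (0.0559) and Kirrel3 (0.0666), and Gabra3 to Tlcd1 (0.0134) and Canx (0.0226). With 5 arrays in 2 tissues such a profile is little more than the size of the fold change.

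Among the other GABA-A subunits, Gabra4, the alpha-4 subunit gene beside Gabrb1, was lower. Its probe set 1429330_at read 27.3, 17.0 and 27.5 in tumours and 88.5 and 58.7 in cerebellum, a log2 fold change of -1.16 ± 0.19 (SE, adjusted p = 0.00213), and 1433707_at gave -0.92 ± 0.15 (SE, adjusted p = 0.00214). Gabrr2, a rho subunit gene, had -0.24 ± 0.14 (SE, adjusted p = 0.240). Of 8 measured genes of that list 4 were tested, 1 was lower and none was higher. Among all tested probe sets 19.0% were lower and 13.1% higher on 430A, and 9.77% and 7.85% on 430B. With 4 genes tested, this count is not set apart from that background. The median log2 fold change of all 8 with no filter was 0.04. All 4 untested genes, Gabra5, Gabrg3, Gabrq and Gabrr1, lay below the filter by the probe set chosen for them, and a 430B probe set of Gabrg3, 1444549_at, had -0.08 (adjusted p = 0.789). The same median over all probe sets was -0.03 on 430A and -0.02 on 430B.

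The genes of proteins that anchor and carry GABA-A receptors held calls in both directions. Of 17 measured genes 16 were tested, 5 were lower and 2 higher, with a median of -0.30 over the 17. Among all tested probe sets 19.0% were lower and 13.1% higher on 430A, and 9.77% and 7.85% on 430B, so the share of higher genes was near the background. The lower genes were led by Dbi, whose protein binds the benzodiazepine site (-1.90 ± 0.22), Gabarapl2 (-1.66 ± 0.22) and Gabarapl1 (-1.60 ± 0.21), relatives of the receptor-binding protein Gabarap, and Gphn, the scaffold gephyrin of inhibitory synapses (-1.16 ± 0.19), given as log2 fold change ± SE. Their adjusted p in limma lay between 6.6e-05 (Dbi) and 7.74e-04 (Gphn). Gabarap itself, named after its value was seen, was not called (0.18, adjusted p = 0.581). It was 1 of 9 tested genes of the list without a call. Gphn read 48.7, 56.1 and 72.1 in tumours and 156 and 144 in cerebellum, without overlap. The other lower gene was Ubqln1 (-0.57 ± 0.17), and the 2 higher genes were Mkln1, which codes for muskelin (0.63 ± 0.21, adjusted p = 0.0359), and Rdx, which codes for radixin (0.68 ± 0.22, adjusted p = 0.0383). These 3 genes were added after their values were seen, to complete the counts. None of Ubqln1, Mkln1 and Rdx was called without cerebellum 1, cerebellum 2, medulloblastoma 1 or medulloblastoma 3.

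Genes that supply GABA and set chloride were lower in 4 of 9, with none higher and a median of -0.59, against the same 19.0% of probe sets lower on 430A and 9.77% on 430B. Gad1, which makes GABA, had -4.64 ± 0.25 and Slc12a5, the neuronal chloride exporter, -4.62 ± 0.24, and Abat and Aldh5a1, which break GABA down, had -2.54 ± 0.20 and -1.38 ± 0.23, as log2 fold change ± SE with adjusted p from 4.2e-07 (Slc12a5) to 0.00195 (Aldh5a1). Gad2, the other GABA-making enzyme (-0.15, adjusted p = 0.555), and Slc32a1, the vesicular GABA transporter (0.01, adjusted p = 0.957), named after their values were seen, were not called. Slc32a1 read 23.8 to 30.9 in tumours and 28.2 and 27.5 in cerebellum 1 and 2, below the 430A array medians of 33.3 to 35.9. Each of these genes had 1 probe set here, so a missing call is no evidence of equal expression. Among 3 measured genes of the GABA-B receptor, which signals through G proteins, 2 were lower, Gabbr1 (-2.16 ± 0.22, adjusted p = 2.09e-05) and its auxiliary subunit Kctd8 (-1.07 ± 0.14, adjusted p = 4.14e-04), with a median of -1.07. Of 5 glycine receptor genes, relatives of GABA-A receptors, only Glrb passed the filter, and it was lower (-1.95 ± 0.22, adjusted p = 4.27e-05). The median over the 5 was -0.01.

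Markers of other cell types of the cerebellum were counted beside the subunits, against the background of 19.0% of probe sets lower and 13.1% higher on 430A and 9.77% and 7.85% on 430B. Of the 10 measured markers of Bergmann glia and astrocytes 7 were lower and none higher. Their summed intensity was 986 to 1975 in tumours and 7011 to 8339 in cerebellum. Aldoc alone read 3529 and 4157 in cerebellum 1 and 2, a large part of that sum. Whether the Aldoc signal came from glia alone was not tested. The median log2 fold change of the 10 was -2.22, against -3.22 for mature granule neurons and -4.81 for Purkinje cells. Aldoc had -4.06 ± 0.26, Gdf10, a Bergmann glia gene, -2.87 ± 0.23, Hopx -2.72 ± 0.21 and S100b -2.42 ± 0.32, while the other 2 tested genes, Gfap and Fabp7, added after their values were seen, had 0.56 and 0.95 without a call. Fabp7 was called higher without medulloblastoma 2 (1.44, adjusted p = 7.43e-04) and Gfap without medulloblastoma 3 (0.76, adjusted p = 0.0163). Of 7 measured markers of GABAergic interneurons 3 were lower, or 5 where each gene had its brightest probe set. Sums over the 7 were 109 to 150 in tumours and 1251 to 1716 in cerebellum. Gad1, also counted with GABA supply, read 904 and 1320 in cerebellum 1 and 2, most of these sums. Lgi2 (-2.49) and Kit (-2.13) were lower too. Slc32a1 (0.01) and Grm2 (-0.42), named after their values were seen, were tested and not called, and Slc6a5 and Tfap2b lay below the filter. Both measured markers of unipolar brush cells were lower (42.8 to 86.6 in tumours and 930 to 1270 in cerebellum). Calb2 read 851 and 1190 in cerebellum 1 and 2, most of these sums. Of 5 oligodendrocyte markers 4 were lower, of 5 microglia markers 3 were higher (637 to 718 in tumours and 271 to 336 in cerebellum), and of 5 endothelial markers 1 was lower, which is near the background, namely Flt1 (-0.46 ± 0.14, adjusted p = 0.0252), a call that ended without cerebellum 1, cerebellum 2, medulloblastoma 1 or medulloblastoma 3. No measured marker of any list was at the floor in all 3 tumours. Only 298 to 477 values per array were at the floor, so this does not show that a marker was expressed there. The part of these cell types in the values of the subunits was not tested.

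**Figure D4:**
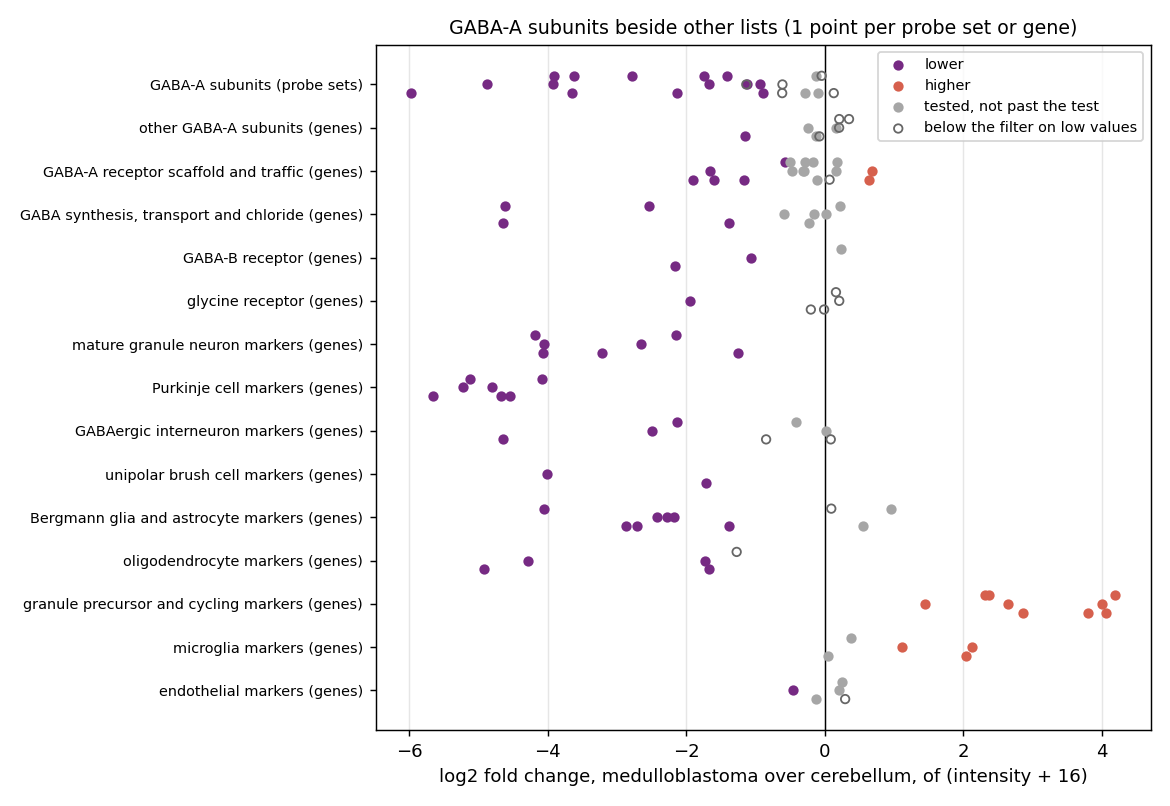
Log2 fold change of medulloblastoma over cerebellum with no filter, 1 point per subunit probe set or per gene of the other lists, coloured by the test and open where a probe set lay below the filter. The subunit probe sets spread from -5.97 to 0.13, granule and Purkinje cell markers lie below 0, and the 9 granule precursor and cycling markers lie above it.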

How the data were processed

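Each of 2 Affymetrix chips was used for 3 medulloblastomas and 2 cerebellum samples, 10 arrays in all, after Trizol extraction and biotin labelling per the labels' protocols. The authors deposited a linear intensity for each probe set and array. The software, scaling and background treatment behind it were not given in the sources used here. Titles gave the group and replicate number. The members and the gene lists were chosen with earlier results of these data known, from textbook knowledge.

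The scale of all tests was log2(intensity + 16), on which a fold change of a low probe set is understated. Probe sets in the lowest 25% by mean log2 value were left out, leaving 16969 on 430A and 16883 on 430B. Each chip was fitted alone with limma 3.58.1 in R 4.3.3 (lmFit, eBayes with an intensity trend, two-sided), with Benjamini-Hochberg adjustment and a call at an adjusted p below 0.05. The fit was tested on simulated data. Precision is limited by the number of arrays.

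Gene names came from the platform annotation, of which 20380 probe sets on 430A and 14661 on 430B name 1 gene. The arrays name no genome build. Promoter sequences, their coordinates and gene order are RefSeq's for GRCm38.p6, and 6 of the 7 genes were matched by symbol. All probe sets of the subunits are named. Each gene of another list had 1 probe set (430A before 430B, plain suffixes before _s_at and _x_at, and otherwise the highest mean), and up to 4 called genes per list are named by size of change, or the 2 with the smallest p where under 2 were called. For likeness the 2 nearest genes are named. Alternatives were no filter, equal array medians, quantile normalization, pseudocounts of 1 and 64, a filter of 50%, no trend, the replicate number as a block, each array left out, scaling of 430B on the 100 shared probe sets, and the brightest probe set of each listed gene. Where 1 cerebellum array remained, the spread came from the tumours alone, and the single cerebellum sample is assumed to vary as much as they do.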

Additional observations from a re-analysis of the deposited data

How the results depend on the processing

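The subunit probe sets called lower numbered 6 on 430A and 8 on 430B in every fit with another pseudocount, normalization, filter, trend or block, except that no filter gave 7 on 430A and a filter of 50% gave 5 on 430A and 7 on 430B, where fewer probe sets were tested. Leaving out an array gave 6 each time on 430A and 7 to 8 on 430B. Of 228 alternative log2 fold changes of subunit probe sets, 227 kept their direction and their side of the threshold, and the other is that of Gabra2 1443865_at without cerebellum 2. No filter, a filter of 50% and no trend leave a log2 fold change as it is, so only its side of the threshold could move. The log2 fold changes with the block repeat those without medulloblastoma 3, as given below. The difference in log2 ratio of Gabra6 to the other subunits kept its direction in 54 of 54, a direction set by Gabra6 having the largest fall. The replicate block, which pairs tumours and cerebellum samples by number alone, left the subunit counts at 6 and 8 and gave 2822 higher probe sets on 430B in place of 1326. Tumour 3 has no cerebellum sample of its number, so the block gives the log2 fold changes of the fit without medulloblastoma 3. That fit called 2603 probe sets of 430B higher. Deviations of samples with the same number correlated with r = -0.03 and 0.17 on 430A and 0.11 and 0.02 on 430B. The deviations of 2 cerebellum arrays from their mean mirror each other, so this check could not decide whether samples were paired. The numbers were not taken as pairs, and the main fit treats the samples as independent. Scaling 430B on the shared probe sets moved the median log2 fold change of all probe sets from -0.02 to -0.23 and the calls to 672 higher and 1623 lower, 70.7% lower in place of 55.4%, and left 8 subunit probe sets lower. With an array left out, 430A had 1275 to 2806 higher and 2057 to 3710 lower probe sets, and 430B 531 to 2603 higher and 954 to 2242 lower. Apart from what the block shares with the fit without medulloblastoma 3, the causes of these shifts were not tested.

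Quantile normalization split the 430A calls into 2670 lower and 2735 higher, 49.4% lower in place of 59.1%, and the block split those of 430B at 45.9%. Among the other lists 400 of 420 alternative counts stayed within 1.5 times of the reported count. Receptor scaffold genes called higher were 1 with no filter and 1 with the replicate block in place of 2, interneuron markers called lower were 5 with the brightest probe sets in place of 3, and 1 unipolar brush cell marker in place of 2 was lower with 50% of the probe sets left out. Glial markers called higher were 1 with quantile normalization or the brightest probe sets and 2 with the block in place of 0, the block called 1 gene of GABA supply higher, and Flt1 was not called with the block or with 50% left out.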
